A study of Mus musculus with 16 samples.

Results

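Pluripotency is held in mouse ESC by a small circuit of transcription factors, and 10 pluripotency genes that are active in ESC were examined here: Pou5f1, Nanog, Sox2, Klf2, Klf4, Klf5, Esrrb, Zfp42, Prdm14 and Tdgf1. Of these, Tdgf1 encodes a co-receptor and no transcription factor. The 10 genes were chosen by name out of 22367 protein-coding genes of the annotation. A peak was given to a gene when it overlapped the gene or lay within 10 kb of either end. The question was whether Jarid2, its methylated form and the histone mark that PRC2 deposits are found at these genes, in ESC and after differentiation.

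Jarid2 and Jarid2-K116me2 (Jarid2 dimethylated at K116) were each mapped by ChIP-seq in 1 library of E14, a mouse ESC line, grown in serum with LIF. H3K27me3 was mapped in 12 libraries, from ESC in serum with LIF and from embryoid bodies (EBs) formed in hanging drops without LIF and kept for 8 days. All 12 came from Jarid2 -/- cells: cells with no rescue (KO), cells rescued with a Jarid2 BAC (WT) and cells rescued with a Jarid2K116A BAC, in which alanine takes the place of the methylated lysine (K116A). Each line had 2 replicates at each stage, which the study calls biological replicates, and no H3K27me3 library came from cells that never lost Jarid2. How many clones stand behind each rescued line is not given in the sources used here. EBs hold a mixture of cell types, so a peak in EBs may come from part of the cells.

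The deposited values are peak lists in mm9 coordinates, each peak with a score from the peak caller. Read numbers were not part of the lists. The study gives them per library, and only the order of the libraries by reads is used here. The reads behind a single peak are unknown, so an absent peak means only that none was called. The lists of the 6 ESC libraries of H3K27me3 covered 2.31 to 10.42 Mb in replicates 1 and 22.78 to 29.24 Mb in replicates 2, against 19.65 to 55.03 Mb in the 6 EB libraries. ESC WT replicate 1 had the shortest list, with 1478 peaks, and EB KO replicate 2 the longest, with 14125. These lengths move with the stage and with the replicate number, and their part in each difference between stages was tested only by taking the same number of peaks from every library. Peak lists cannot show whether the cells express the markers of ESC, nor can they check the loss of Jarid2 in the KO line. As a reference, all 15 regulators of germ layers and organs on a fixed list (such as Pax6 and Gata4) had a Jarid2 peak, against 1 of 10 housekeeping genes.

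PRC2 methylates lysine 27 of histone H3 at genes that are kept silent, and Jarid2 is a cofactor that helps to bring it there. In ESC, PRC2 and Jarid2 are known for occupying the CpG-rich promoters of developmental regulators, while the pluripotency genes are transcribed. During differentiation LIF signalling is withdrawn, the pluripotency genes are shut down, and silenced CpG-rich genes can acquire H3K27me3.

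PRC2 is known to favour CG-rich DNA, and therefore the promoters of the genes on which the results turn are shown before the peaks. RefSeq promoters of 300 bases (250 before and 50 after the start, build GRCm38.p6) matched 8 of the 10 genes, with 11 start sites. Klf5 and Prdm14 had no entry. Each of the 11 was also found letter for letter in mm9. Capitals mark the dinucleotide CG, which reads the same on both strands and occurs in 94.6% of all 32851 promoters.

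The start of Esrrb upstream, at which no peak was found, and its internal start, which lay under the Jarid2 peak, were as follows.
Esrrb, upstream start, chr12:86360867-86361166, plus strand: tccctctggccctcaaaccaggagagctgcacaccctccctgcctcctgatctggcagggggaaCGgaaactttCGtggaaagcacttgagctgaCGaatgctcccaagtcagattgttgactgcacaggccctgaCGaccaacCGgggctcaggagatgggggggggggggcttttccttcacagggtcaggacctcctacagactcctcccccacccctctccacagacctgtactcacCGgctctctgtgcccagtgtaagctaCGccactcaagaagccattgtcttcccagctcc
Esrrb, internal start, chr12:86421394-86421693, plus strand: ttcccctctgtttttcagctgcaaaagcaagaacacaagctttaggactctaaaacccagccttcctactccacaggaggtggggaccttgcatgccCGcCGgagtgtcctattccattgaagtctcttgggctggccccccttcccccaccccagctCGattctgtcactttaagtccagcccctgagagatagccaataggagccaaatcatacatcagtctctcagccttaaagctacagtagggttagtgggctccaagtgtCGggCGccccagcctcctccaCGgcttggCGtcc

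The starts of Klf4 and Klf2 are shown because these genes carried no H3K27me3 peak in ESC libraries and carried peaks in EB libraries, and the first start of Nanog because it had a peak in no library.
Klf4, chr4:55532426-55532725, minus strand: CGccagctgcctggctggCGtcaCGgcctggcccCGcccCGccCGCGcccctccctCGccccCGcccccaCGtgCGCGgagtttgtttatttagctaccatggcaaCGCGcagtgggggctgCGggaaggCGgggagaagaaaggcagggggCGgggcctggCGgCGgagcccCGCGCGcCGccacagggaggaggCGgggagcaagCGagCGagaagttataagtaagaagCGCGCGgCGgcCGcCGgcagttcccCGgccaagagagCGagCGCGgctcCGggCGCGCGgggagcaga
Klf2, chr8:72318812-72319111, plus strand: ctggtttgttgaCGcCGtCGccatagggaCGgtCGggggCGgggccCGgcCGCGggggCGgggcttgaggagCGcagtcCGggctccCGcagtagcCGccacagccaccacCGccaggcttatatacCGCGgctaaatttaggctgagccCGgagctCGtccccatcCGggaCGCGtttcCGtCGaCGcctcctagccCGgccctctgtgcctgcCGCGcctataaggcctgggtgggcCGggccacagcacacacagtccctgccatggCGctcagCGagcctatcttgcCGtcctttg
Nanog, first start, chr6:122707239-122707538, plus strand: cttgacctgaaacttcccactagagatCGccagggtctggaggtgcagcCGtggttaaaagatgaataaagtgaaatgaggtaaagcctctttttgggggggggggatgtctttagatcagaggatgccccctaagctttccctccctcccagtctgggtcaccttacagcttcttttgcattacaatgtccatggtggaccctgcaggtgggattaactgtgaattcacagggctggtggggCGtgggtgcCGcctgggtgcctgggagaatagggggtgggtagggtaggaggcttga

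The promoter of Klf4 held 40 CG, that of Klf2 held 32 and that of Sox2 held 27. As many CG as in Klf4 were found in 3.91% of all promoters, as many as in Klf2 in 9.52% and as many as in Sox2 in 15.5%. The other 8 promoters held 4 to 11 CG, near the median of 7 over all promoters (quartiles 3 and 20). Pou5f1 had 11 and 6 CG at its 2 starts, Zfp42 had 11, Esrrb 7 at each start, Tdgf1 7 and Nanog 4 at each start. Thus the matched genes split into 3 with CG-rich starts and 5 with starts of ordinary or low CG content.

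**Figure D1:**
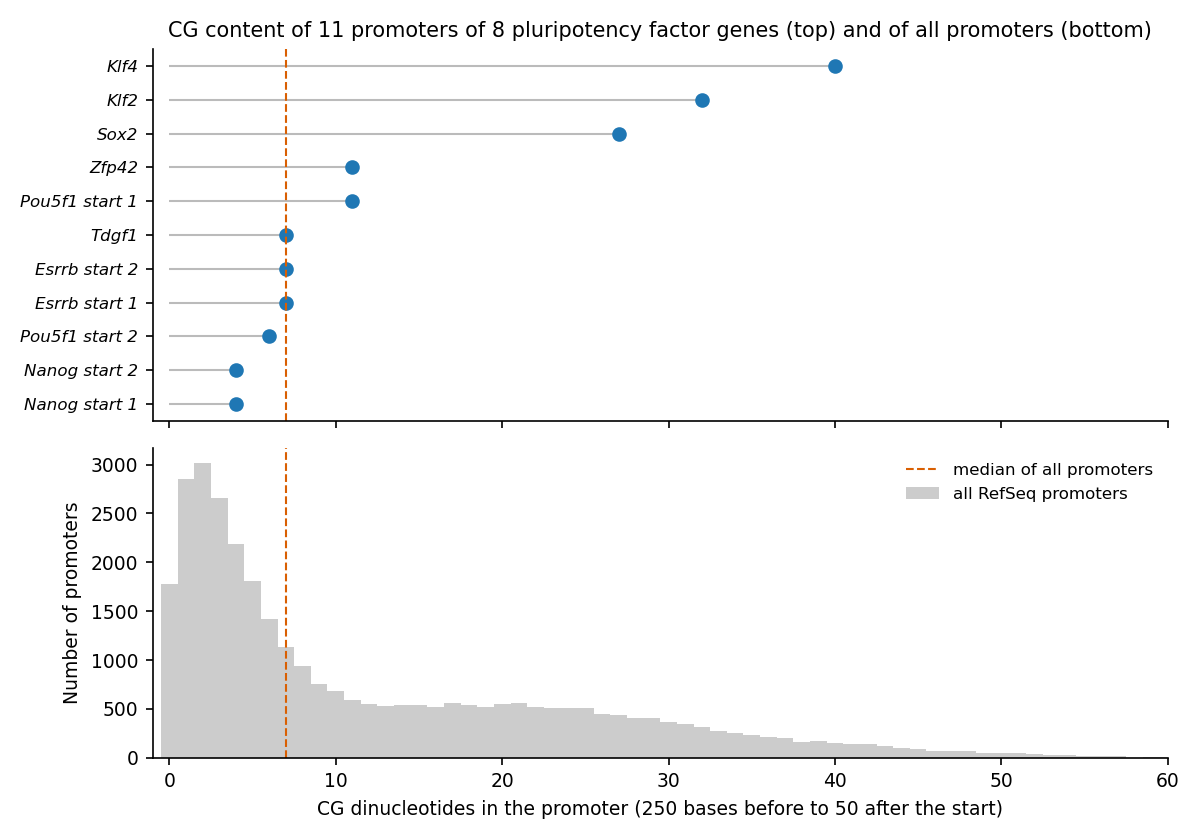
CG dinucleotides in 11 promoters of 8 pluripotency factor genes (top, 1 dot per start site) above the distribution over all 32851 RefSeq promoters of 300 bases (bottom, number of promoters per CG count). The dashed line is the median of 7, and Sox2 (27), Klf2 (32) and Klf4 (40) lie in the upper part of the distribution.

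Only Esrrb and Prdm14 had a Jarid2 peak in E14 ESC, and these 2 of 10 genes were also the only ones with a Jarid2-K116me2 peak. A Jarid2 peak was found at 20.2% of all protein-coding genes, a Jarid2-K116me2 peak at 17.9% and peaks of both antibodies at 17.6%. With 2 of 10, the set was thus at the level of genes in general for all 3 measures. There is 1 library per antibody, so these counts have no replicate check.

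Esrrb encodes an orphan nuclear receptor that works with Nanog and Pou5f1 in the naive network. The gene (ENSMUSG00000021255.10) spans chr12:87702067-87862578 on the plus strand, 160512 bp with 5 start sites. Its Jarid2 peak, chr12:87761868-87765194, was 3327 bp wide with a score of 2868.23, which is the p-value that MACS gave the peak on a scale of minus 10 log10. This score was at or above that of 83.8% of the 4992 Jarid2 peaks. The Jarid2-K116me2 peak, chr12:87762153-87764603, had a score of 3072.68 and lay entirely inside the Jarid2 peak.

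Both Esrrb peaks lay over the internal starts at position 87762594 (3 transcripts) and 87762833, at 60.5 kb from the first start of the gene, where neither antibody had a peak. The internal promoter printed above was covered over all of its 300 bases by both. Its CG are few, but the densest 300 bases of the Jarid2 peak, chr12:87762592-87762891, begin 2 bases before this start and hold 38 CG. The median over all Jarid2 peaks was 34 CG in their densest 300 bases (quartiles 25 and 43), and 39.9% held as many as Esrrb. In CG content, the occupied part of Esrrb was therefore an ordinary Jarid2 peak, and the CG lay just past the start rather than before it.

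Prdm14 encodes a PR-domain protein that restrains FGF signalling and DNA methylation in ESC. The gene (ENSMUSG00000042414.7, chr1:13103538-13117244, minus strand) had a Jarid2 peak over its only annotated start, chr1:13114696-13117589, with a score of 1194.94. Jarid2-K116me2 had 2 peaks inside that region, with scores of 618.03 and 227.85. The stronger of the 2, chr1:13115086-13116695, lay within the gene, and the weaker, chr1:13116723-13117542, lay over the start. The larger Jarid2-K116me2 score was 0.52 times that of Jarid2 at Prdm14 and 1.07 times that of Jarid2 at Esrrb. Scores depend on the depth of each library and carry no error here, so these ratios are descriptions only.

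The other 8 genes had no peak of either antibody within 10 kb. Zfp42 (Rex1), a zinc finger gene used as a marker of naive ESC, came closest, with a Jarid2 peak 11.9 kb upstream and a Jarid2-K116me2 peak 12.1 kb upstream. Both were weak, with scores of 125.07 and 126.53, at or above only 17.6% and 8.0% of their lists, and a distance of up to 20 kb would add Zfp42 to both counts. No start site of another gene lay closer to them than that of Zfp42.

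For the remaining 7 genes the nearest Jarid2 peak lay further away, and to which gene it belongs was not tested. Pou5f1 (Oct4), the POU factor at the core of the network, had its nearest peaks 34.4 kb (Jarid2) and 34.6 kb (Jarid2-K116me2) away, at the start of H2-Q10. For Nanog, the homeobox factor of the core, they lay 104.6 and 105.2 kb away, and for Klf4, 118.2 and 118.2 kb. For Klf2 they lay 183.0 and 183.0 kb away at Tpm4, and for Tdgf1 (Cripto), a co-receptor for Nodal, 194.6 and 194.7 kb away at Pth1r.

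Sox2, the HMG-box partner of Pou5f1, lay 688.2 kb from the nearest Jarid2 peak and 1507.0 kb from the nearest Jarid2-K116me2 peak. Klf5 lay 1127.2 and 1128.4 kb from the nearest peaks, which were at Dach1. The median distance over the 10 genes was 111.4 kb for Jarid2 and 111.7 kb for Jarid2-K116me2, against 115.7 and 142.4 kb over all protein-coding genes on chromosomes with peaks. Sox2 and Klf5 were beyond the upper quartiles of all genes, which were 325.9 and 378.4 kb.

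**Figure D2:**
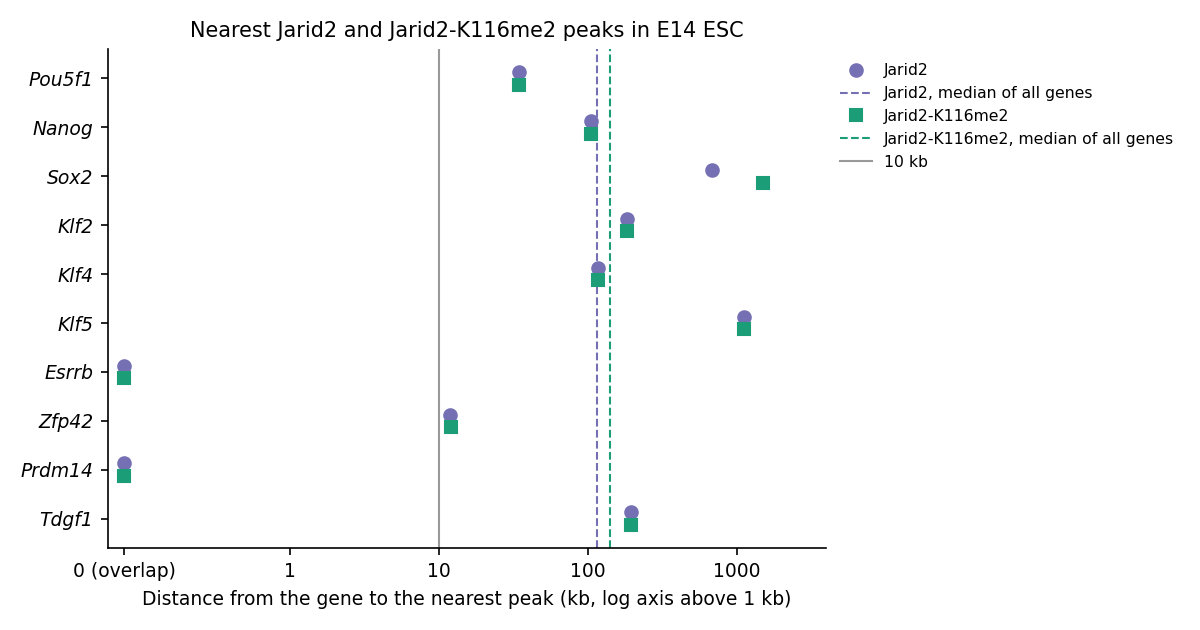
Distance in kb from each pluripotency factor gene to the nearest Jarid2 peak (circles) and Jarid2-K116me2 peak (squares) in E14 ESC, 1 library per antibody, on an axis that is logarithmic above 1 kb. Dashed lines are the medians over all protein-coding genes (115.7 and 142.4 kb), and only Esrrb and Prdm14 lie within 10 kb.

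In ESC, H3K27me3 was found at Esrrb in all 6 libraries, near Sox2 and Klf5 in some, and at none of the other 7 genes. An H3K27me3 peak in at least 1 ESC library was found at 3 of the 10 genes, against 36.1% of all protein-coding genes, and in all 6 at 1 of the 10, against 4.25%. The number of the 10 genes with a peak was 1 in KO replicate 1, 3 in KO replicate 2, 1 in WT replicate 1, 3 in WT replicate 2, 1 in K116A replicate 1 and 2 in K116A replicate 2. All replicates 1 were below all replicates 2, as were the lengths of their peak lists.

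In EBs, 8 of the 10 genes had an H3K27me3 peak in at least 1 library, against 45.1% of all protein-coding genes. The number of genes was 4 in KO replicate 1, 7 in KO replicate 2, 4 in WT replicate 1, 4 in WT replicate 2, 5 in K116A replicate 1 and 6 in K116A replicate 2. Every EB library was above every ESC library in this count. With the 1478 strongest peaks of each library, the count was 1 or 2 in ESC and 1 to 4 in EBs, and the stages then overlapped through EB WT replicate 2.

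Differences between the stages were tested on the percent of the gene and 10 kb on each side that H3K27me3 peaks covered. An exact two-sided permutation test compared the 6 EB with the 6 ESC libraries, and p-values were adjusted by the Benjamini-Hochberg method over the 11302 protein-coding genes with coverage in any library. Coverage was called higher in EBs at 664 genes (5.88%) and lower at 5 (0.0442%). The median difference over these genes was 1.16 percentage points, and 76.1% of them had the higher mean in EBs. Of the 10 pluripotency factor genes, 8 had coverage and could be tested, their median difference was 2.81 percentage points, and 1, Klf4, was called higher. Pou5f1, Klf2, Klf4, Prdm14 and Tdgf1 had coverage in EB libraries alone and so entered the test only through EBs. Their differences could only be positive, as for any gene without coverage in ESC. The median of 2.81 is therefore a description and no separate evidence of a gain. The smallest p that 924 relabellings can give is 0.00216, and 669 genes reached it, so that whether a gene at this limit is called depends on how many others reach it.

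**Figure D3:**
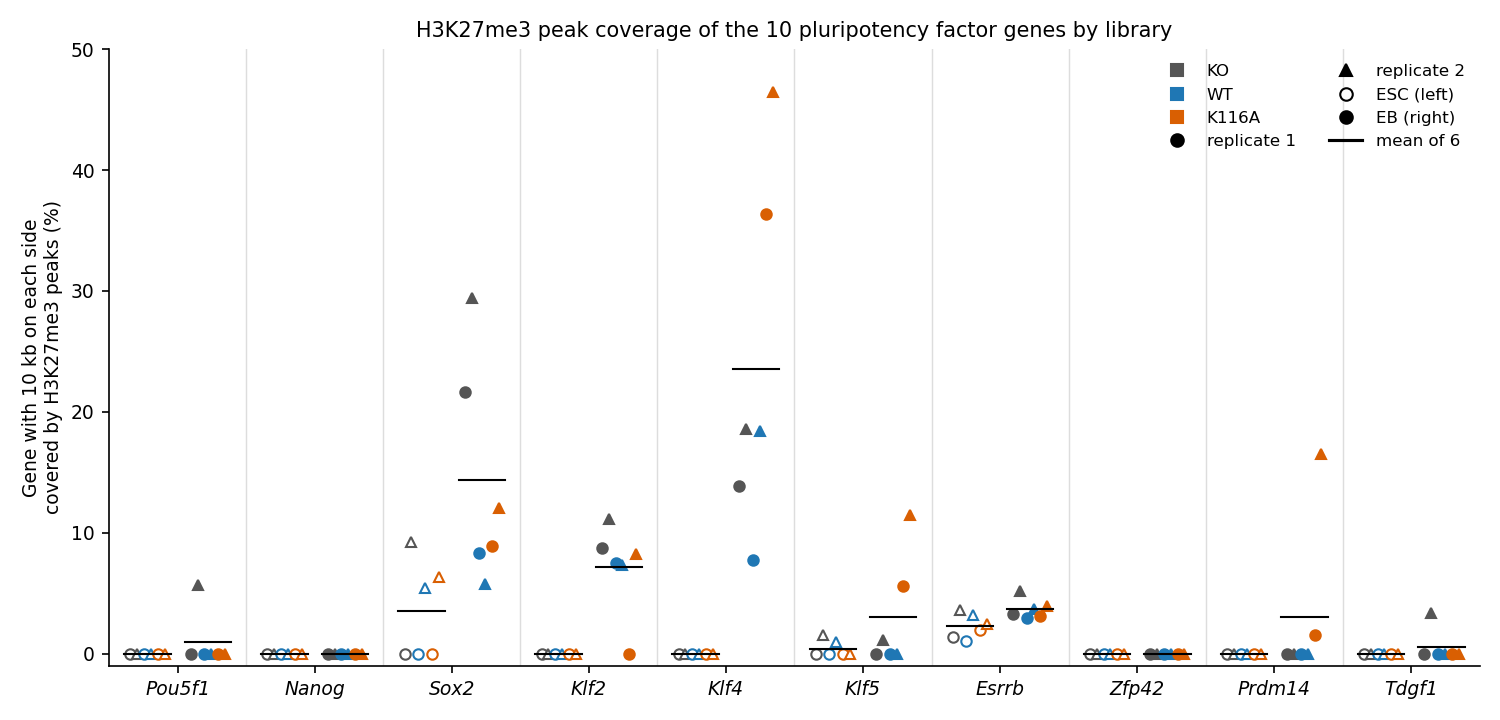
Percent of each gene with 10 kb on each side that was covered by H3K27me3 peaks, for 6 ESC libraries (open symbols) and 6 EB libraries (filled symbols). Colours give the line, symbols the replicate and bars the mean of 6 libraries. Klf4 was at 0 in all ESC libraries and at 7.73 to 46.43% in EBs, and Nanog and Zfp42 were at 0 throughout.

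The Krüppel-like factors Klf2, Klf4 and Klf5 are zinc finger factors that act in part redundantly in naive ESC. Klf4 (ENSMUSG00000003032.7, chr4:55540013-55545347, minus strand) had no H3K27me3 peak in any of the 6 ESC libraries and a peak in all 6 EB libraries, a pattern shared by 0.68% of all protein-coding genes. The covered part in EBs was 13.85% in KO replicate 1, 18.56% in KO replicate 2, 7.73% in WT replicate 1, 18.43% in WT replicate 2, 36.40% in K116A replicate 1 and 46.43% in K116A replicate 2. The stages did not overlap, and the 2 K116A libraries were the highest.

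The mean for Klf4 was 23.6% ± 14.7 (SD, n = 6) in EBs against 0 in ESC (exact permutation test, p = 0.00216, adjusted p = 0.0366). limma on log2(percent + 1), with the line as a covariate, gave a difference of 4.40 on this scale with an adjusted p of 3.21e-05. The exact test no longer called Klf4 when any of the 6 ESC libraries was left out (KO, WT or K116A, replicate 1 or 2; adjusted p 0.0577 to 0.0992), although the difference stayed at 23.6 percentage points. Permuted within the replicate number as a block, Klf4 was at the smallest p that 400 relabellings can give and was not called either (exact permutation test, p = 0.005, adjusted p = 0.0502). With the 1478 strongest peaks of each library, Klf4 had a peak in 0 ESC and 5 EB libraries (adjusted p = 0.0986). Over its 21 alternatives the adjusted p ranged from 3.21e-05 to 0.479.

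The position of H3K27me3 at Klf4 differed between the lines. In KO and WT EBs a peak of 1313 to 1401 bp lay inside the gene, beginning 385 to 492 bp past the first start, covering the internal start of 1 transcript at position 55544642, and the nearest upstream peak began 1188 to 1682 bp before the first start. KO replicate 1 had another upstream peak beginning 3962 bp before it. The promoter printed above lay in the gap and was covered over 0 of its 300 bases in these 4 libraries. In K116A EBs a peak of 9222 bp in replicate 1 and of 11131 bp in replicate 2 ran across the start and covered all 300 bases. Replicate 2 had a further peak of 5363 bp, which lay 9370 bp past the end of the gene. The 2 against 4 libraries behind this difference were not tested, and K116A replicate 2 had a longer peak list (37.17 Mb) than 4 of the other 5 EB libraries. By the study's read counts, it was also the deepest EB library and the WT libraries were the shallowest. K116A replicate 1 had fewer reads than either KO library. The part of read depth in the difference was not tested.

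Klf2 (ENSMUSG00000055148.7, chr8:74842932-74845555, plus strand) had no peak in the 6 ESC libraries and a peak in 5 of 6 EB libraries. A peak in no ESC library and in 5 or 6 EB libraries was found at 2 of the 10 genes, Klf2 and Klf4, against 1.41% of all protein-coding genes. Among the 8 genes without a peak of either Jarid2 antibody it was 2 of 8, against 1.57% of such genes. This pattern, like that given above for Klf4, was not among the planned comparisons and follows the values of these genes. The shares are therefore descriptions and were not tested. The covered part of Klf2 in EBs was 8.75% in KO replicate 1, 11.14% in KO replicate 2, 7.48% in WT replicate 1, 7.34% in WT replicate 2, 0% in K116A replicate 1 and 8.26% in K116A replicate 2. K116A replicate 1 was therefore at the level of the ESC libraries, while the other 5 were close to each other.

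The mean for Klf2 was 7.16% ± 3.77 (SD, n = 6) in EBs against 0 in ESC, which the exact permutation test did not call (p = 0.0152, adjusted p = 0.10). Without EB K116A replicate 1 it was called (adjusted p = 0.0346), and over its 21 alternatives the adjusted p ranged from 0.00485 to 0.782. With the 1478 strongest peaks of each library, Klf2 had a peak in 0 ESC and 2 EB libraries, both of them KO. The difference was then 3.32 percentage points (exact permutation test, p = 0.455, adjusted p = 0.687). limma called Klf2 and Klf4, 2 of the 8 genes tested, with an adjusted p of 0.00712 for Klf2, where it called 11.8% of the 11302 genes tested higher in EBs. The 5 peaks were 1660 to 2521 bp wide and lay in the gene, beginning 66 to 436 bp past the start. The promoter printed above was covered over 13 of 300 bases in KO replicate 2 and over none in the other libraries. At both CG-rich Klf genes, the KO and WT EB libraries had a peak inside the gene, and at Klf4 further peaks upstream of it.

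Klf5 (ENSMUSG00000005148.7, chr14:99697910-99712624, plus strand) had small and scattered peaks. In ESC it was covered by 1.56% in KO replicate 2 and 0.92% in WT replicate 2, each from a peak about 8 kb upstream, and by 0% in the other 4 libraries. In EBs the covered part was 0% in KO replicate 1, 1.13% in KO replicate 2, 0% in both WT libraries, 5.61% in K116A replicate 1 and 11.44% in K116A replicate 2. The stages overlapped, and the difference of 2.62 percentage points was not called (exact permutation test, p = 0.303, adjusted p = 0.611). The highest libraries were again the 2 of K116A, and within 2.5 kb of the start they were covered by 38.91 and 71.71%, against 7.86% in KO replicate 2 and 0% in the other 9 libraries.

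**Figure D4:**
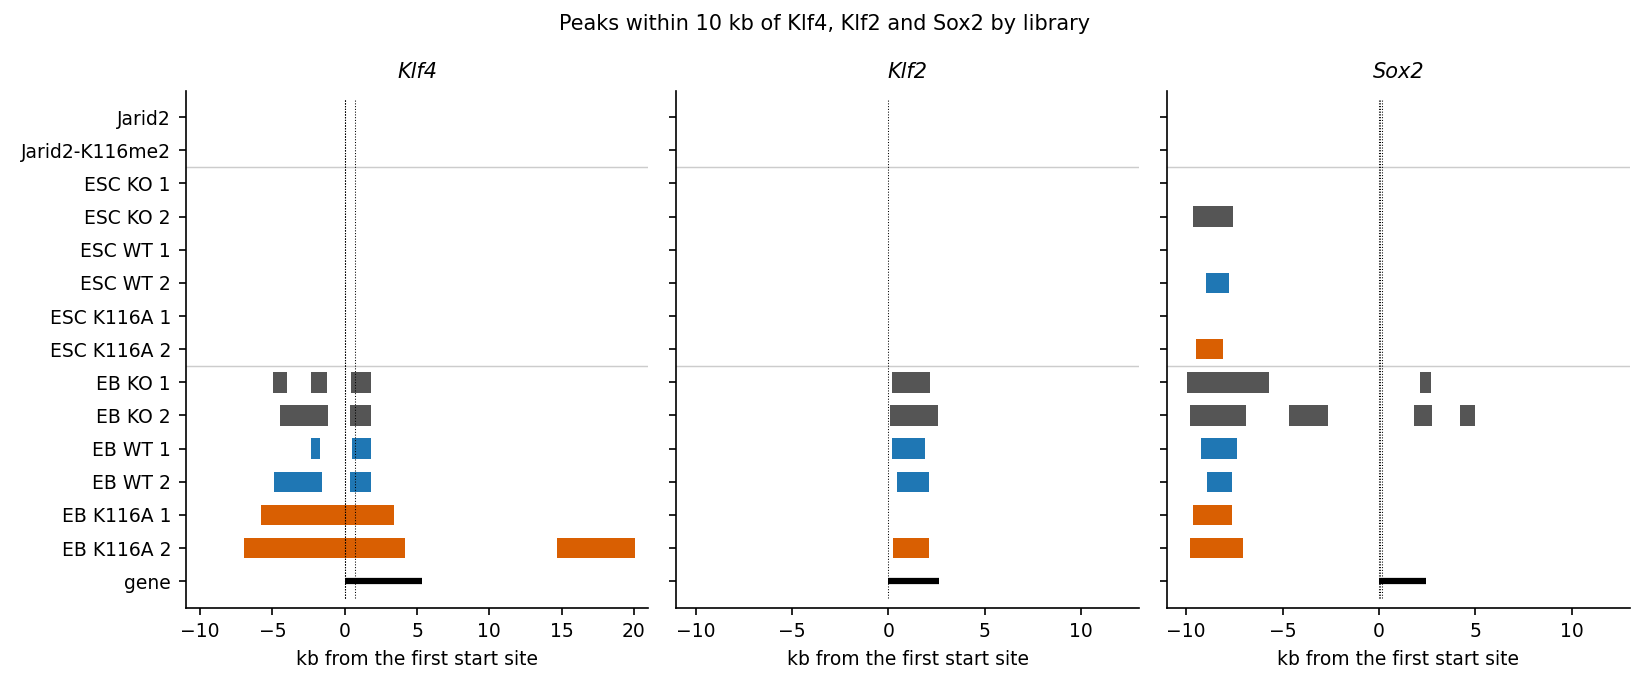
Peaks within 10 kb of Klf4, Klf2 and Sox2 in kb from the first start site of each gene (dotted lines, start sites; black bar, gene), 1 row per library, coloured by antibody or line. No Jarid2 or Jarid2-K116me2 peak is present, the Klf4 and Klf2 peaks appear in EBs alone, and the K116A peaks of Klf4 run across the start.

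Near Sox2 (ENSMUSG00000074637.3, chr3:34548927-34551383, plus strand) the mark lay outside the gene in most libraries. The ESC coverage was 0% in all 3 replicates 1, and 9.27% in KO, 5.40% in WT and 6.36% in K116A replicates 2. These peaks lay 7548 to 8077 bp upstream of Sox2, and the start site nearest to them was that of Sox2ot, the long noncoding RNA that overlaps Sox2. In EBs all 6 libraries had the upstream peak, and the coverage was 21.66 and 29.45% in KO, 8.29 and 5.77% in WT and 8.92 and 12.08% in K116A, replicates 1 and 2 in this order.

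At Sox2 the stages overlapped, and the difference of 10.9 percentage points (14.4% ± 9.23 against 3.50% ± 4.05, SD, n = 6 each) was not called by the exact permutation test (p = 0.0173, adjusted p = 0.109). limma gave an adjusted p of 0.0613, and of 0.016 with the replicate number as a block, over a range of 0.016 to 0.79 under all alternatives. Among replicates 2, EB WT (5.77%) was within the range of ESC (5.40 to 9.27%). Only the 2 KO EB libraries had a peak in the Sox2 gene, of 605 bp in replicate 1 and 912 bp in replicate 2, beginning 2115 and 1810 bp past the first start. These were also the EB libraries whose lists held the most peaks, 10164 and 14125. The CG-rich Sox2 promoter itself was covered in none of the 12 libraries.

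Esrrb carried H3K27me3 in ESC, at the site of its Jarid2 peak. Of the genes with peaks of both Jarid2 antibodies, 21.4% had an H3K27me3 peak in all 6 ESC libraries, and Esrrb was the 1 of the 2 bound genes that did. The peak over the Jarid2 site in ESC was 2519 bp wide in KO replicate 1, 6008 bp in KO replicate 2, 1818 bp in WT replicate 1, 5439 bp in WT replicate 2, 3445 bp in K116A replicate 1 and 4408 bp in K116A replicate 2. All replicates 2 were wider than all replicates 1.

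In EBs the Esrrb peak was 5870 and 9354 bp wide in KO, 5292 and 6673 bp in WT and 5638 and 7042 bp in K116A. The mean covered part of the gene was 2.26% ± 1.01 in ESC and 3.68% ± 0.82 in EBs (SD, n = 6 each), a difference that was not called (exact permutation test, p = 0.0216, adjusted p = 0.128). Within replicates 1, ESC lay between 1.01 and 1.91% and EBs between 2.93 and 3.25%, and within replicates 2 between 2.44 and 3.59% and between 3.70 and 5.18%. The stages thus did not overlap among libraries of the same replicate number, and they overlapped when the numbers were pooled. The mark was present at this site in the KO line too, in all 4 KO libraries.

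Prdm14, the other gene with a Jarid2 peak, had no H3K27me3 peak in any ESC library. This was so for 6.16% of the genes with peaks of both Jarid2 antibodies. In EBs it had a peak in both K116A libraries and in none of the other 4. The covered part was 1.52% in K116A replicate 1, from a peak of 513 bp inside the gene, and 16.54% in K116A replicate 2, from a peak of 5574 bp across the start.

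A peak in both K116A EB libraries and in none of the other 10 was found at 0.295% of all protein-coding genes, and at 1 of the 10 genes here. This pattern was not among the planned comparisons and follows the values of Prdm14, so the share is a description only. The like pattern was found at 2.98% of all genes for KO EBs and at 0.0402% for WT EBs, and at none of the 10 genes in either case. With 2 libraries per line and stage, a comparison of 2 against 2 cannot go below p = 0.333, and the comparison of EBs with ESC did not call Prdm14 (exact permutation test, p = 0.455, adjusted p = 0.682). The K116A replicate 1 peak had a score at or above only 15.9% of its list.

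**Figure D5:**
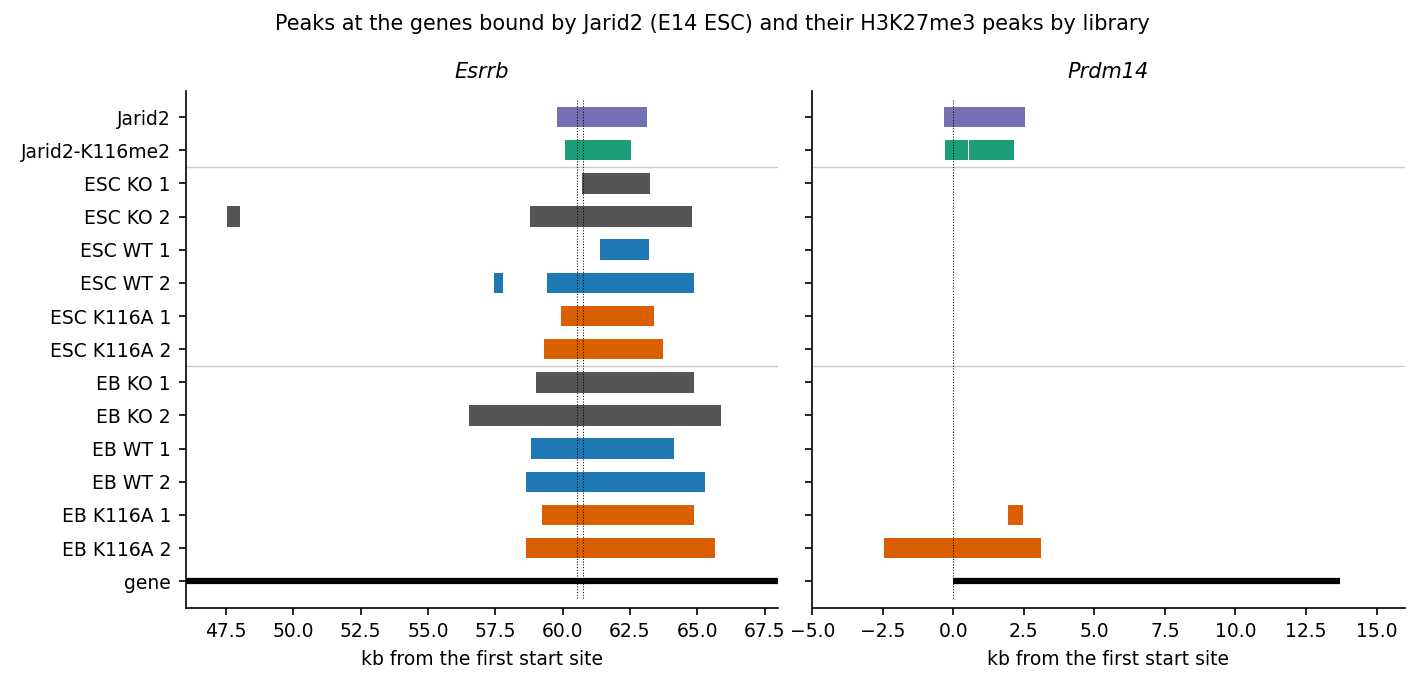
Peaks at Esrrb (left) and Prdm14 (right) in kb from the first start site (dotted lines, start sites; black bar, gene), 1 row per library. At Esrrb all 12 H3K27me3 libraries have a peak at the Jarid2 site about 60 kb past the first start, and at Prdm14 only the 2 K116A EB libraries have one.

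The core factors Pou5f1 and Nanog, and with them Zfp42 and Tdgf1, stayed nearly free of H3K27me3. Pou5f1 (ENSMUSG00000024406.9, chr17:35642982-35647721, plus strand) had a peak in EB KO replicate 2 alone, of 1397 bp over the first start, and Tdgf1 (ENSMUSG00000032494.8, chr9:110842114-110848662, minus strand) had a peak of 892 bp in the same library alone. The covered parts there were 5.65 and 3.36%, against 0% in the other 11 libraries. This library had the longest of all peak lists, and the Tdgf1 peak was among its weakest, at or above 0.5% of the list.

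Nanog (ENSMUSG00000012396.5, chr6:122657507-122664651, plus strand) and Zfp42 (ENSMUSG00000051176.5, chr8:44380422-44392363, minus strand) had no H3K27me3 peak in any of the 12 libraries. The nearest H3K27me3 peak to Nanog lay 78.3 to 219.2 kb away, depending on the library, and that to Zfp42 76.8 to 2071.7 kb away. Both genes, and Pou5f1 and Tdgf1, have promoters with 4 to 11 CG, whereas the 3 matched genes with CG-rich starts, Klf4, Klf2 and Sox2, each had a peak within 10 kb in 5 or 6 EB libraries. These peaks lay mostly off the promoters themselves. The Sox2 promoter was covered in none of the 12 libraries, and that of Klf2 over 13 of 300 bases in EB KO replicate 2 alone. Only in the 2 K116A EB libraries was the Klf4 promoter covered. With 8 genes matched, this is a description and was not tested, and Esrrb, with 7 CG in each promoter, had a peak in every library. The densest 300 bases of its Jarid2 peak held 38 CG.

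The study asked whether Jarid2 that can be methylated is needed for proper H3K27me3 during differentiation. From reads, it contrasted ESC with EBs in each line and reported differences between the lines in EBs. In ESC it found none beyond those between duplicates. The study also measured transcripts during differentiation. It reported that most pluripotency markers fell, Zfp42, Klf4, Esrrb and Prdm14 among its examples. The fall appeared earlier and stronger in the KO and K116A lines. Transcripts were not examined in the present report. Here the WT rescue was compared with KO and K116A on peak coverage, with both stages averaged. A difference confined to EBs was therefore not tested separately, and the study's question is not answered. The exact permutation test, with the labels permuted within the stage (4 against 8 libraries, smallest p 0.00444), called none of the 11302 genes (0.0%), and 371 had an unadjusted p under 0.05. Only 2 genes reached the smallest p, and the lowest adjusted p was 0.863. The lack of calls therefore does not show that the lines are alike. limma, with the stage as a covariate, called 0 as well, and 686 had an unadjusted p under 0.05. None of the 8 tested pluripotency factor genes was called.

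The mean coverage of Klf4 was 6.54% ± 8.73 (SD, n = 4) in WT and 14.4% ± 18.3 (SD, n = 8) in KO and K116A (exact permutation test, p = 0.200, adjusted p = 0.863). For Sox2 it was 4.86% ± 3.49 in WT and 11.0% ± 10.2 in KO and K116A (p = 0.151 by the same permutation test, adjusted p = 0.863). Esrrb stood at 2.71% ± 1.18 and 3.10% ± 1.2 (permutation test, p = 0.502, adjusted p = 0.905), and Klf2 at 3.71% ± 4.28 and 3.52% ± 4.93 (permutation test, p = 1.00). Of the 8 genes, 7 had the lower mean in WT, and over all 11302 genes 8.64% had the higher mean in WT. The WT peak lists covered 2.31 and 22.78 Mb in ESC and 19.65 and 22.52 Mb in EBs. With the 1478 strongest peaks of each library, 0 genes were called. WT minus KO and K116A was then -10.1 percentage points for Klf4 (main -7.86) and -4.34 for Sox2 (main -6.1). It was -0.404 for Esrrb (main -0.392) and -2.49 for Klf2 (main 0.186). By the study's read counts, the WT libraries were the shallowest in EBs, and WT replicate 1 was the deepest in ESC. The part of read depth was not tested.

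For context, 27 further genes of the pluripotency network were counted from a fixed list. A Jarid2 peak was found at 8 of 27, against 20.2% of all protein-coding genes, and a Jarid2-K116me2 peak at 7 of 27, against 17.9%. The 4 with the highest Jarid2 scores were Gbx2, Otx2 and Fgf5, each at 3100, and Lefty1 at 1854.99. Otx2 and Fgf5 are known as genes of the primed state that follows naive pluripotency, Gbx2 as a target of LIF signalling and Lefty1 as an inhibitor of Nodal.

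H3K27me3 was found at 10 of the 27 in at least 1 ESC library, against 36.1% of all protein-coding genes, and at 11 of 27 in at least 1 EB library, against 45.1%, so both counts were near those of genes in general. A peak in no ESC library and in 5 or 6 EB libraries, as at Klf2 and Klf4, was found at 3 of 27, against 1.41% of all protein-coding genes. They were Nr5a2, Utf1 and Fgf4, named after their values were seen. Nr5a2 encodes a nuclear receptor of the naive network, Utf1 a chromatin factor of ESC and Fgf4 the growth factor that drives exit from the naive state. Utf1 and Fgf4 had no Jarid2 peak within 10 kb, as was the case for Klf2 and Klf4, and Nr5a2 had a weak one with a score of 63.23.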

How the data were processed

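ChIP-seq was done by the authors on single reads of 100 bp, mapped to mm9 with Bowtie2 (2.1.0 in the processing notes), with duplicates removed by Picard and peaks called against input, separately for each library. The inputs of the series came from E14 ESC and from Jarid2 KO ESC, and none from EBs or rescued cells. The EB libraries and those of the rescued lines thus had no input of their own kind. Jarid2 and Jarid2-K116me2 peaks came from MACS 1.4.2 at an FDR of 0.15%, and H3K27me3 peaks from MACS2 2.0.10 in broad mode at an FDR of 5%. The deposited files hold each peak with a score, which for H3K27me3 is of a scale not given in the sources used here. The study regards replicates 2 as the better H3K27me3 samples. All 103531 peaks lay within the chromosomes of NCBIM37. Inputs and reads were not used here.

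Peaks were assigned to GENCODE genes of the same build (10 kb, overlap of 1 bp). Percent coverage was tested by exact permutation (EB against ESC, and WT against KO and K116A within stage) and by limma 3.58.1 with a pseudocount of 1. Adjusted p-values under 0.05 were called. Scripts (pandas 2.3.3 and numpy 2.4.6 under Python 3.11.15) were tested on simulated data. The genes and lists were chosen with earlier results of these data known. All 10 genes are named, and of the other lists at most the 4 with the highest Jarid2 score, genes nearest to a peak, and 3 chosen after their values were seen.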

Additional observations from a re-analysis of the deposited data

Results flagged for a closer look

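In 4 of the 11 groups of 6 libraries with any coverage of a pluripotency factor gene, 1 library lay far from the other 5, where chance alone gives about 1 group in 20. Groups in which most libraries are at 0 are flagged readily by this measure. Klf2 was at 0.0% in EB K116A replicate 1, against 7.34 to 11.14% in the other 5 EB libraries. Prdm14 was at 16.54% in EB K116A replicate 2, against 1.52% in EB K116A replicate 1 and 0% in the other 4. Pou5f1 at 5.65% and Tdgf1 at 3.36% stood out in EB KO replicate 2, with 0% in the other 5, and this library had the most peaks of all 12 (14125).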

How the results depend on the processing

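The counts of genes with a Jarid2 peak or a Jarid2-K116me2 peak were 2 at 5 kb, by overlap with the gene, within 1 kb of a start and at a score of 200 or more, and 3 at 20 kb. A shared overlap of 50% of each peak left 2 genes with both. The median number of genes with an H3K27me3 peak was 1.5 in ESC (1.0 to 2.0 under the alternatives) and 4.5 in EBs (3.0 with the same number of strongest peaks, otherwise 4.0 to 5.0). The EB against ESC test called 669 genes, 0 within 2.5 kb of the starts, 211 with equal numbers of peaks (91.9% of them higher, against 99.3%), 1398 by limma, 0 without the filter on coverage, 0 in replicates 2 or in replicates 1 alone (3 against 3, where the smallest p of the exact test is 0.1) and 0 at H3K27me3 scores of 60 or more, an alternative chosen after seeing the data, as were replicates 1 alone. Leaving out 1 library gave 0 to 712. The calls vary with how many genes reach the smallest p, as the construction of the adjustment implies. Replicate numbers were shared by the groups, and their deviations correlated at 0.15 to 0.82 over the 15 pairs of groups, but only 2 numbers exist and nothing in the labels ties them, so a pairing is not established. With the replicate block the exact test called 0 genes (smallest adjusted p 0.0502). At its smallest p were 1125 of the 11302 genes, Klf4 and Esrrb among them. With this block limma called 2527, with Klf4, Klf2 and Sox2 among those. The WT comparison called 0 under every alternative, the replicate block included. Some alternatives left Pou5f1, Tdgf1, Prdm14 or Klf5 without any coverage and so without a value. Of 284 alternative values of single genes, 257 kept direction and side of the threshold, 13 lost the Klf4 call and 4 gained a call. The 10 reversals were differences between WT and the other lines: Klf2 (main 0.186) gave -2.49 with equal numbers of peaks and at scores of 60 or more and -1.07 to 1.42 over the libraries left out in turn, and Esrrb (main -0.392) gave 0.175 without ESC WT replicate 1 and -0.722 to 0.175 over all libraries left out in turn. A q-value limit was not run, since the lists hold none.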
